A study of Mus musculus with 3 samples.

Results

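Newborn neurons of the vomeronasal organ (VNO) pass from an immature state, in which they extend an axon, to a mature state, in which they detect pheromones. The genes described here mark the ends of that passage. Omp, which encodes olfactory marker protein, was taken as the mature marker. Gap43, Stmn2, Tubb2b, Dpysl3, Crabp1 and Tex15 were taken as the 6 immature markers. They are 7 of the 32285 genes counted and were measured in cells of the neuronal lineage of each library. They were chosen by name as maturation markers, with earlier results of these data known.

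The data are 3 single-cell RNA-seq libraries of the VNO of male mice on a mixed C57 BL/6J and 129P2/OlaHsd background, with 1 library per group. All 3 groups were heterozygous for OMPCre, an allele that makes Cre recombinase from the Omp locus, so 1 Omp allele was altered in the control as well. The control at postnatal day 10 (P10) carried OMPCre alone. The P10 mutant and the mutant labelled both P90 and 3 months carried OMPCre and R26AP2e, a Rosa26 transgene that gives the transcription factor AP-2ε (gene Tfap2e) in cells that have expressed Omp. The tissue was dissociated with papain, kept frozen as a suspension and run on the 10x Genomics 3′ v3.1 chemistry, and the number of animals per library was not stated. Whether transcripts of the OMPCre allele were counted as Omp was not tested.

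Olfactory and vomeronasal sensory neurons (VSNs) arise throughout life from basal progenitors, by way of precursors that express Neurog1 and Neurod1. The postmitotic cell first expresses growth cone and microtubule genes and later chooses a receptor of the V1R family (apical VSNs, with the G protein subunit encoded by Gnai2) or of the V2R family (basal VSNs, with that encoded by Gnao1). Omp appears late, and in the main olfactory epithelium Gap43 and Omp are the textbook pair that separate immature from mature neurons.

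After removal of barcodes with fewer than 200 or more than 9000 genes or with over 10% of unique molecular identifiers (UMIs) from mitochondrial genes, 4795, 3956 and 6960 cells of the P10 control, P10 mutant and 3-month mutant were kept. Neuronal lineage cells made up 526, 215 and 244 of them, or 10.97%, 5.435% and 3.51%. They were clustered without the 7 genes, and were named from other markers as progenitor-like, precursor-like, immature VSN-like and mature VSN-like (progenitors, precursors, immature VSNs and mature VSNs from here on). The control, P10 mutant and 3-month mutant held 62, 29 and 10 progenitors, 107, 36 and 46 precursors, 185, 84 and 26 immature VSNs, and 172, 66 and 162 mature VSNs. Immature VSNs were 35.2%, 39.1% and 10.7% of lineage cells, and mature VSNs were 32.7%, 30.7% and 66.4%. The thresholds that separate the stages, on receptor, Neurod1, Umodl1 and Ano1 levels, were set after the levels of the clusters had been seen, those of the 7 genes included. The immature to mature differences below are in part a result of that choice.

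Levels are given as UMIs of a gene per 1000000 UMIs of all genes (CPM), summed over the cells of a stage, with an exact Poisson 95% interval. Runs of 3 values are in the order P10 control, P10 mutant and 3-month mutant, and runs of 2 values without a named library are P10 control and P10 mutant. Ratios carry a conditional exact binomial interval and shares of cells a Clopper-Pearson interval. All of these cover counting error only, and with 1 library per group no test of a condition was possible. At P10 the genotype cannot be told apart from the library, nor can age among the mutants. The file headers name Cell Ranger 4.0.0 for the P10 counts and 6.0.1 for the 3-month counts.

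The libraries held 83870584, 80760046 and 70074800 UMIs in 8202, 8864 and 10293 barcodes, and pairs of libraries shared 21 to 30 barcodes. The 3-month mature VSNs stood apart in depth, with a median of 1106.5 UMIs per cell against 13987 and 23810 at P10, and 70 of those 162 cells had under 1000 UMIs. The 3-month precursors were shallow too, at a median of 2396 UMIs against 12512 and 14190. The 3-month mature VSNs also carried more UMIs of the 7 gland genes (lipocalins and odorant-binding proteins). These summed to 3636 CPM against 579 and 71.0, with none of the 7 at 0. So did the 3-month precursors (3999 CPM against 401 and 67.65) and immature VSNs (1946 against 352 and 82.77). The part of the gland UMIs in the results was not tested. V1R genes held 49.6% of receptor UMIs in the 3-month mature VSNs and 87.4% and 81.8% at P10. Tfap2e, the gene of the transgene, stood at 31.7, 648 and 235 CPM in mature VSNs.

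Omp, an abundant cytoplasmic protein of mature chemosensory neurons, is at 7:98143359-98145502 on the minus strand of mouse build GRCm38. In both P10 libraries its level was higher in immature VSNs than in precursors, and higher again in mature VSNs. Progenitor and precursor values rested on few UMIs, 2 of them in control progenitors, and did not differ beyond counting error. In the control Omp was at 1.23 CPM in progenitors, 3.21 in precursors, 45.5 in immature VSNs and 467 (440 to 495) in mature VSNs. In the P10 mutant it was 0, 4.51, 44.9 and 426 (390 to 464). In the 3-month mutant no Omp UMI was found among the precursors, which allows up to 10.4 CPM, and immature and mature VSNs stood at 20.9 (8.39 to 43.0) and 442 (405 to 482). The 3 mature values lay close together, and every one was far above the immature value of its library. The mature level was 10.3 (8.49 to 12.5), 9.49 (7.22 to 12.7) and 21.2 (10.2 to 53.0) times the immature level, and the last immature value rested on 7 UMIs. The 3-month progenitors read 51.2 CPM, but all 14 of those UMIs came from 1 cell with a high doublet score.

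Gap43 (16:42248442-42340651, minus strand) encodes growth-associated protein 43, a membrane phosphoprotein of growth cones. It was nearly absent from progenitors, at 3.07, 1.52 and 7.32 CPM. Precursors held 310, 239 and 202 CPM, and immature VSNs held 1459 (1413 to 1506), 1679 (1609 to 1751) and 2104 (1952 to 2265). Mature VSNs held 362 (338 to 387), 251 (224 to 281) and 96.5 (79.5 to 116). Gap43 thus peaked in immature VSNs of each library, 4.71, 7.02 and 10.4 times above precursors. Its mature level was 0.248, 0.150 and 0.0459 of the immature level.

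Stmn2, Tubb2b and Dpysl3 belong to the growing cytoskeleton. Stmn2 (3:8509360-8561606, plus strand) encodes a stathmin that binds free tubulin. Tubb2b (13:34126748-34130466, minus strand) encodes a beta-tubulin of developing neurons. Dpysl3 (18:43320984-43438286, minus strand) encodes a collapsin response mediator protein of growth cones.

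Stmn2 was already high in precursors, at 4651, 4321 and 3675 CPM, and read 4639, 4183 and 5195 in immature VSNs and 914, 884 and 382 in mature VSNs. Its immature level was 0.998 (0.967 to 1.03), 0.968 (0.919 to 1.02) and 1.41 (1.31 to 1.53) times the precursor level. Among the immature markers, Stmn2 was the one whose level at P10 did not differ between precursors and immature VSNs beyond the counting interval.

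Tubb2b went from 2234, 2009 and 1116 CPM in precursors to 4236, 4170 and 3010 in immature VSNs and 833, 808 and 368 in mature VSNs. Dpysl3 went from 629, 654 and 424 CPM to 1060, 1308 and 900, and then to 253, 236 and 221. Both genes were about as high in immature VSNs over precursors as each other, with ratios of 1.90, 2.07 and 2.70 for Tubb2b and 1.69, 2.00 and 2.12 for Dpysl3. Mature VSNs kept 0.196, 0.194 and 0.122 of the immature Tubb2b level and 0.239, 0.180 and 0.245 of the immature Dpysl3 level. Dpysl3 was the only immature marker whose mature share of the immature level was not smaller in the 3-month mutant than in both P10 libraries.

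Crabp1 (9:54764748-54773110, plus strand) encodes a cytoplasmic protein that binds retinoic acid. Its promoter was the only one of the 7 found in the RefSeq promoter table for GRCm38.p6, and the 250 bases before its start, chr9:54764498-54764747 on the plus strand, are shown because Crabp1 was, with Tex15, lower at an earlier stage than the other immature markers.

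Crabp1 promoter: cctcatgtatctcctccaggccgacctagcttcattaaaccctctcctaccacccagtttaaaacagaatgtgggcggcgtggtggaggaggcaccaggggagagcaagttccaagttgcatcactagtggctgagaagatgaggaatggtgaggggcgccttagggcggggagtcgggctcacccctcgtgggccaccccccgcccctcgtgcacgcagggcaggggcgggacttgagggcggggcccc

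Of these bases 63.6% were G or C, with 12 CpG pairs. Letters are all in lower case because none of 4 motifs searched on both strands was present. These were CCCNNGGG (a core of the site of Ebf factors, held by 11.8% of 32851 promoters), CAGATG (an E-box, 14.4%), TAATTA (a homeodomain core, 4.84%) and TTCAGCACC (part of the NRSF/REST site, 0.301%).

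Crabp1 stood at 17.8, 4.56 and 0 CPM in progenitors, 412, 688 and 306 in precursors, 1506, 1182 and 1791 in immature VSNs, and 137, 24.5 and 16.4 in mature VSNs. Tex15 (8:33516738-33585582, plus strand) is known for its part in meiosis and transposon silencing in male germ cells, and here it followed the same course. It stood at 2.46, 4.56 and 10.98 CPM in progenitors, 274, 286 and 111 in precursors, 627, 543 and 1493 in immature VSNs, and 29.96, 19.6 and 14.7 in mature VSNs. From precursors to immature VSNs 4 of 7, 4 of 7 and 5 of 6 members with enough UMIs were at least 2-fold higher and 0 lower, against 14.0%, 16.5% and 20.5% of all genes higher and 13.0%, 11.2% and 11.3% lower. The mature level was 0.0910, 0.0207 and 0.00914 of the immature level for Crabp1 and 0.0478, 0.0360 and 0.00981 for Tex15. With a 5% mitochondrial limit Crabp1 gave 0.224 and 0.0417 and Tex15 0.1003 and 0.0871 at P10, while Omp gave 6.65 in the control and 35.7 at 3 months. The ratios without that limit were smaller than those of the 4 growth genes in both P10 libraries and at 3 months.

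**Figure D1:**
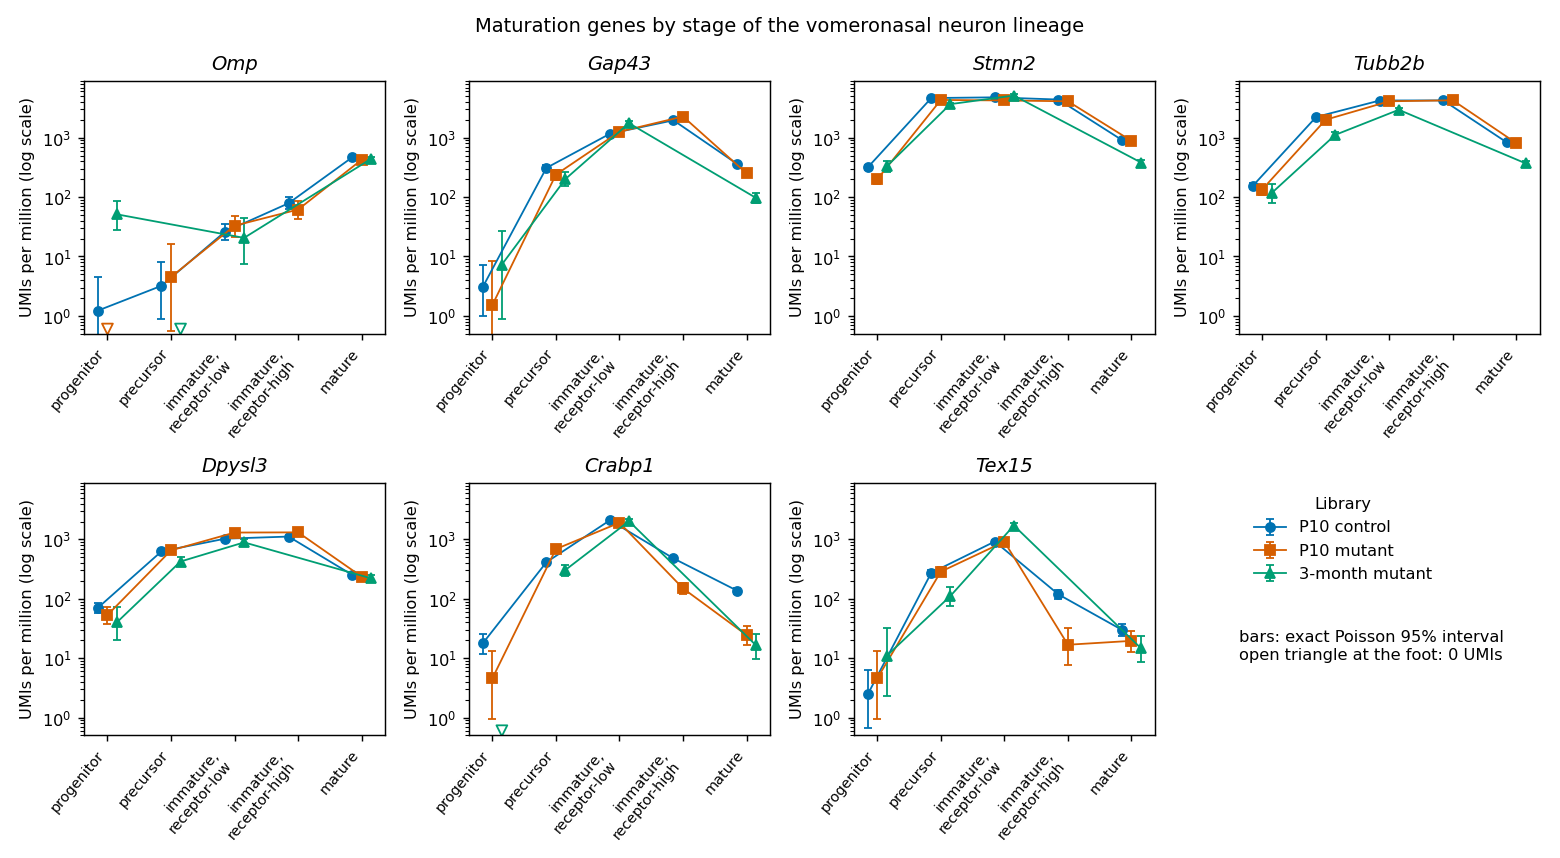
Level of each gene (CPM, log scale) by stage of the neuronal lineage, with 1 point per library and exact Poisson 95% intervals. Omp climbs to 426 to 467 in mature VSNs, and Gap43 is highest in receptor-high immature VSNs at P10 (1963 and 2274). Crabp1 and Tex15 are highest in receptor-low immature VSNs and at P10 lower in receptor-high ones. The 3 receptor-high cells of the 3-month mutant are not drawn.

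All 6 immature markers were at least 2-fold lower and Omp at least 2-fold higher in mature than in immature VSNs of each library. Among all genes with at least 20 UMIs, 11.9%, 12.6% and 14.8% were at least 2-fold lower and 12.7%, 10.5% and 17.5% at least 2-fold higher. The direction turned at P10 for Gap43 (2.30 and 1.89), Stmn2 (1.39 and 1.23), Tubb2b (1.40 and 1.24) and Dpysl3 (1.52 and 1.28) when stages were set by marker detection, which counts receptor-high immature cells as mature and progenitors as immature. A list of 25 other growth and cytoskeleton genes gave 13, 14 and 17 of 24 genes lower and 0 higher, with a median log2 ratio of -1.15, -1.24 and -1.55 against -0.05, -0.11 and -0.07 over all genes. Ina, which encodes alpha-internexin, a neurofilament subunit of young neurons, was among the lowest, at 0.0459, 0.0245 and 0.00851. Uchl1, a ubiquitin hydrolase found in most neurons, did not follow, at 1.27, 1.14 and 0.911. Of 10 maturity genes, 7 of 9, 5 of 8 and 6 of 8 with enough UMIs were higher and 0 lower, Gng13, a G protein gamma subunit, by 14.9, 15.3 and 49.3 times. Umodl1 and Ano1 of that list had been used to set the stages. The members and both lists were chosen with earlier results of these data known, so these counts describe the data and are not a test.

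The immature VSNs were split at 2000 CPM of summed V1R and V2R genes into receptor-low cells (124, 56 and 23) and receptor-high cells (61, 28 and 3). The cut is a limit on a continuous level, and 27, 10 and 4 cells lay within 2-fold of it. Only 22, 16 and 11 immature VSNs had no receptor UMI, so receptor-low cells include cells with receptor UMIs. Whether those UMIs were expressed by the cell or came from free RNA was not tested. The 3-month mutant had too few receptor-high cells to compare. At P10 the immature markers parted into 3 courses across this step.

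Crabp1 and Tex15 were much lower in receptor-high cells. Crabp1 read 2103 and 1909 CPM in receptor-low cells and 479 and 150 in receptor-high cells, ratios of 0.228 (0.206 to 0.251) and 0.0784 (0.0618 to 0.0982). Tex15 read 922 and 914 CPM in receptor-low cells and 119 and 16.8 in receptor-high cells, ratios of 0.129 (0.106 to 0.156) and 0.0184 (0.00839 to 0.0352). Of all genes, 4.36% and 4.88% were at least 2-fold lower in this comparison. In the control 4 receptor-high cells held 345 of 468 Crabp1 UMIs and 4 held 97 of 116 Tex15 UMIs, so the residual level there came from few cells. With receptor-high set instead by at least 5 receptor UMIs, the Crabp1 ratios were 0.542 and 0.316 and the Tex15 ratios 0.368 and 0.2002.

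Gap43 went the other way, with 1166 and 1261 CPM in receptor-low and 1963 and 2274 in receptor-high cells, ratios of 1.68 (1.58 to 1.80) and 1.80 (1.66 to 1.97). Omp read 26.2 and 33.0 CPM in receptor-low and 78.8 and 61.7 in receptor-high cells, ratios of 3.01 (2.05 to 4.46) and 1.87 (1.08 to 3.29). Of all genes, 5.54% and 5.95% were at least 2-fold higher. With receptor-high set by at least 5 receptor UMIs, Gap43 gave 1.72 and 1.67, while Omp gave 1.30 (0.871 to 1.99) and 1.34 (0.751 to 2.48), with 1 inside both intervals. The receptor-high cells held 0.169 and 0.145 of the mature Omp level.

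Stmn2, Tubb2b and Dpysl3 moved little across the step, with ratios of 0.918 and 0.969 for Stmn2, 1.00 and 1.04 for Tubb2b and 1.09 and 1.01 for Dpysl3. The control intervals of Stmn2 (0.885 to 0.953) and Dpysl3 (1.01 to 1.17) left out 1, and Stmn2 turned to 1.08 in the control with receptor-high set by at least 5 receptor UMIs. In mature VSNs each of the 3 was at least 2-fold lower than in receptor-high cells. Mature over receptor-high ratios were 0.208 and 0.215 for Stmn2, 0.196 and 0.190 for Tubb2b, 0.227 and 0.179 for Dpysl3, 0.184 and 0.111 for Gap43, and 0.286 and 0.163 for Crabp1. Tex15 gave 0.252 in the control. Lower by at least 2-fold were 6 and 5 of the 7 members, against 7.93% and 9.77% of all genes, and Tex15 of the P10 mutant was at 1.16 (0.521 to 2.84) on 24 and 9 UMIs. Omp was the 1 member at least 2-fold higher there, as were 10.7% and 9.48% of all genes. Of the other growth genes, 0 of 24 were at least 2-fold lower in receptor-high than in receptor-low control cells and 2 of 24 for the mutant. This compares with 11 of 24 and 13 of 23 lower in mature than in receptor-high cells.

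Lineage cells were also ordered by their own Omp level, into cells without an Omp UMI and 3 ranges bounded at 294 and 528 CPM, the terciles of the Omp-positive control cells. Cells without Omp mixed stages. Immature VSNs were 148 of 352 in the control and 56 of 133 in the P10 mutant, and mature VSNs 41 and 14. All others there were progenitors or precursors. In the low range immature VSNs were 29 of 58 and 26 of 37, and mature VSNs 23 and 9. The part of this make-up in the shapes below was not tested. Gap43 was highest in the low range at P10. From no Omp to high Omp the control read 631, 1226, 467 and 283 CPM and the mutant 716, 1344, 250 and 229. Tubb2b and Dpysl3 had the same shape at P10, with 2866 and 3120 CPM of Tubb2b and 736 and 1002 of Dpysl3 in the low range. Stmn2 did not share it in the control, with 3268 (3217 to 3319) CPM without Omp and 2841 (2741 to 2944) in the low range, and in the mutant it read 2909 and 2931 with overlapping intervals. Crabp1 and Tex15 were highest where Omp was 0, with 887 and 938 CPM of Crabp1 there and 244 and 112 in the low range. The high range in the 3-month mutant had a median of 1249 UMIs per cell, so that 1 Omp UMI could place a cell there.

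**Figure D2:**
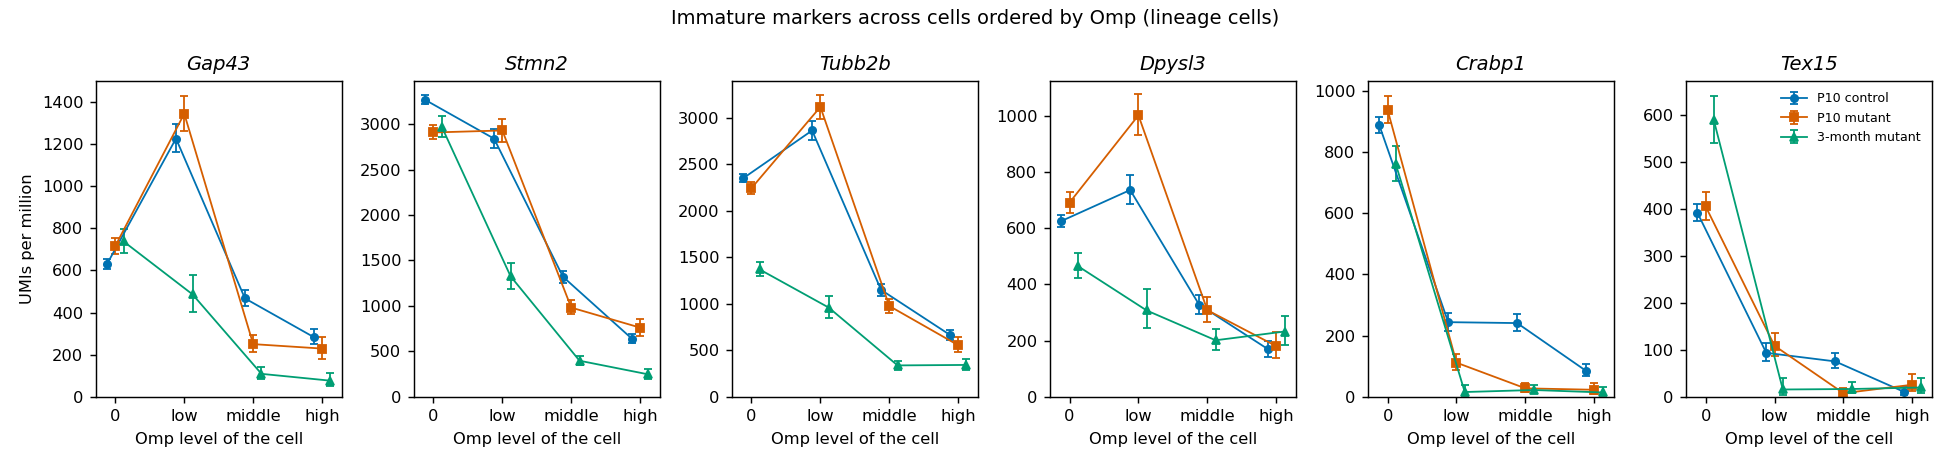
Level of each immature marker (CPM, linear scale) in lineage cells without Omp and with low, middle and high Omp, for 3 libraries, with exact Poisson 95% intervals. At P10 Gap43, Tubb2b and Dpysl3 are highest in the low range of Omp, and Crabp1 and Tex15 are highest where Omp was not detected. In the 3-month mutant the low range held 14 cells and Gap43 there was 486. Cells without Omp include progenitors and precursors.

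Omp and the immature markers were often found in the same cell before any correction for depth. Of Omp-positive lineage cells, 147 of 174 (84.5%, 78.2 to 89.5), 72 of 82 (87.8%, 78.7 to 94.0) and 28 of 85 (32.9%, 23.1 to 44.0) had a Gap43 UMI. The 3-month share was below both P10 shares with no overlap of the intervals. Depth differed between these cells, at medians of 20236.5, 22858 and 12584 UMIs, so each cell was also thinned to 1000 UMIs, with shallower cells left out. The thinned shares were 31.1% (19.4 to 44.8), 26.1% (10.0 to 48.8) and 7.46% (1.16 to 22.6), of which the 3-month share was again the lowest, but the intervals overlapped and the order of the P10 libraries turned. Of Omp-negative lineage cells 63.4%, 55.6% and 33.3% had a Gap43 UMI unthinned and 37.6%, 36.0% and 26.7% thinned. At equal depth the Omp-positive share was the lower one in each library, but at P10 its interval included the Omp-negative share. Within immature VSNs the thinned order was the reverse, with Omp-positive shares of 70.7%, 75.5% and 80.2% against 64.9%, 65.9% and 74.5%. Those rested on an expected 5.46 Omp-positive cells or fewer per library. Within mature VSNs the P10 shares were close, as given below, and the 3-month Omp-positive share was the lower one. The part of stage make-up in the pooled order was not tested. Thinned Omp-negative cells included cells that had Omp UMIs before thinning.

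Gap43 UMIs in cells that should lack the gene were rare. In immune cells 21 of 610, 20 of 683 and 7 of 1928 had one, and the level there was 7.82, 4.54 and 0.617 CPM, below the 362, 251 and 96.5 CPM of mature VSNs. Omp read 1.76, 0.379 and 0.970 CPM in immune cells, so the Omp of the receptor-low immature VSNs (26.2, 33.0 and 20.6 CPM) stood above it in each library. The precursors' 3.21 and 4.51 CPM at P10 were not separable from it, with intervals of 0.874 to 8.22 and 0.546 to 16.3.

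In immature VSNs with an Omp UMI (37, 28 and 4 cells), all cells had Gap43, Stmn2, Tubb2b and Dpysl3. So did 92.9% to 100% of the Omp-negative immature VSNs, depending on gene and library. Crabp1 was found in 35.1%, 50% and 25% of the Omp-positive cells, against 70.3%, 78.6% and 86.4% of the Omp-negative immature VSNs. Tex15 was found in 21.6%, 21.4% and 75.0% against 64.9%, 67.9% and 77.3%. The Omp-positive cells were the deeper ones at P10, with medians of 18532 and 17595 UMIs against 13172.5 and 13654, yet fewer of them held Crabp1 or Tex15. Crabp1 and Tex15 thus overlapped with Omp less than the 4 growth genes did.

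Within mature VSNs, 82.4%, 82.7% and 28.7% of Omp-positive cells had a Gap43 UMI, and 21.9%, 7.14% and 10.98% of Omp-negative cells did. The Omp-negative mature cells were shallow, at medians of 1017, 1700.5 and 871.5 UMIs, and after thinning the P10 shares were close, 26.8% against 25.6% (control) and 18.2% against 16.0% (mutant). Thinning also set Omp status anew. It left an expected 50.4 of 145 control and 19.0 of 61 mutant cells Omp-positive, against 131 of 172 and 52 of 66 before. The thinned Omp-negative cells thus included many that had Omp UMIs. The close shares therefore cannot decide whether Gap43 differed between Omp-positive and Omp-negative mature cells. In the 3-month mutant the thinned shares were 5.92% and 11.67%, the reverse order of the unthinned ones, on an expected 1.81 cells with both genes. Omp-positive lineage cells with none of the 6 immature markers numbered 3 of 174, 0 of 82 and 15 of 85, and those with at least 3 of the 6 numbered 157, 78 and 51.

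**Figure D3:**
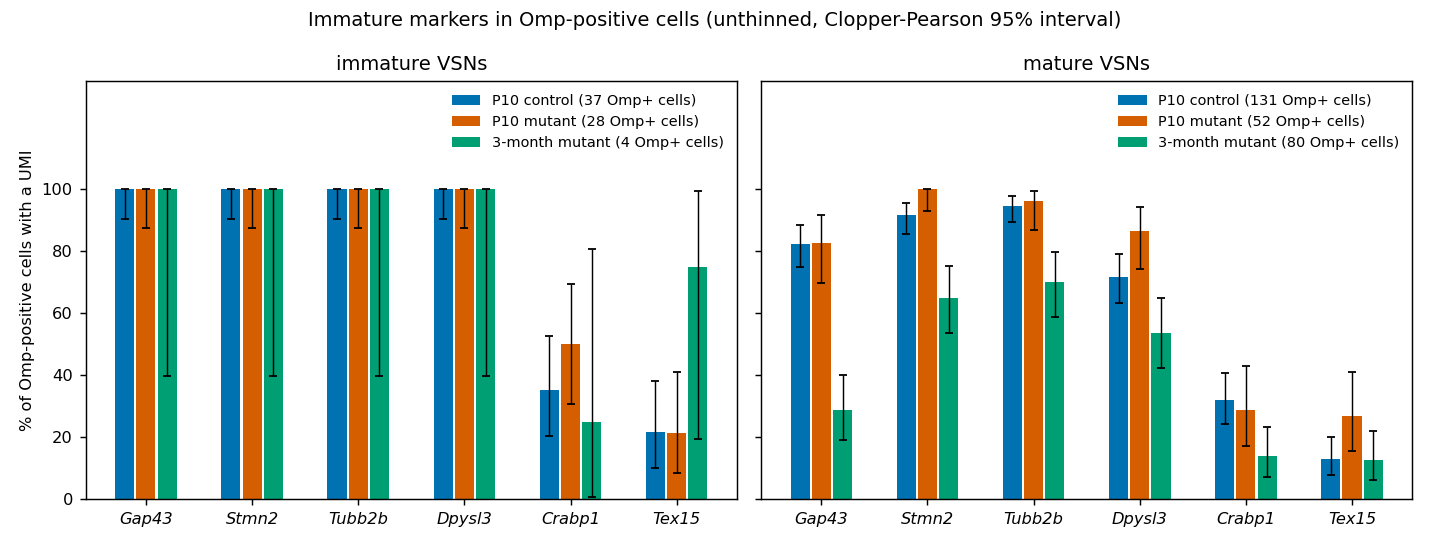
Share of Omp-positive immature (left) and mature (right) VSNs with at least 1 UMI of each immature marker, as bars per library with Clopper-Pearson 95% intervals, without thinning. In immature VSNs the 4 growth genes reach 100% and Crabp1 and Tex15 stay at 50% or less at P10. In mature VSNs Gap43 is at 82.4%, 82.7% and 28.7%.

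The P10 mutant was compared with the P10 control to see whether AP-2ε in Omp-expressing cells went with a changed maturation profile. In immature VSNs the members differed little. Ratios of mutant to control were 0.986 for Omp (0.708 to 1.36), 1.15 for Gap43 (1.09 to 1.21), 0.902 for Stmn2, 0.984 for Tubb2b, 1.23 for Dpysl3 (1.16 to 1.31), 0.785 for Crabp1 and 0.867 for Tex15. None passed 2-fold, while 2.52% (higher) and 2.41% (lower) of all genes did. In precursors 0 of 6 members with enough UMIs passed it, with Gap43 at 0.772, Stmn2 at 0.929, Tubb2b at 0.899, Dpysl3 at 1.04, Crabp1 at 1.67 and Tex15 at 1.05, against 2.93% of all genes higher and 3.77% lower. In immature VSNs the median log2 ratio of the 6 immature markers was -0.09 against 0.07 over all genes. That median changed sign, to between 0.04 and 0.21, when cells were weighted equally, when stages were set by marker detection and when each library was clustered on its own. With libraries clustered on their own, 1 of 185 control and 36 of 84 mutant immature cells became precursors. Of mature cells, 49 of 172 and 0 of 66 became immature.

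In mature VSNs Omp read 467 CPM in the control and 426 in the mutant, a ratio of 0.912 whose interval (0.821 to 1.01) included 1. Stmn2, Tubb2b and Dpysl3 gave 0.967, 0.971 and 0.931, each with 1 inside its interval. Gap43 gave 0.694 (0.607 to 0.791), 251 against 362 CPM. That direction was not kept with stages set by marker detection (1.02) or with the mixed sub-clusters, which also held markers of another cell class, included (1.01). At least 2-fold lower were 1 of the 7 members and 4.29% of all genes, and at least 2-fold higher were 0 members and 2.35% of all genes.

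The member past 2-fold was Crabp1, at 137 CPM in the control and 24.5 in the mutant, a ratio of 0.178 (0.118 to 0.260). A single control cell of 45334 UMIs held 194 of the 325 Crabp1 UMIs and 49 of the 71 Tex15 UMIs, beside 18 Omp and 349 receptor UMIs, and it was not among the highest doublet scores. Without the top cell of the gene in each library the Crabp1 ratio was 0.354, and with cells weighted equally it was 1.40. Tex15 in mature VSNs gave 0.653 (0.393 to 1.05), and 1.64 without the top cells. The lower Crabp1 and Tex15 of the mutant's receptor-high immature VSNs, with ratios of 0.313 (0.244 to 0.397) and 0.142 (0.0633 to 0.279), came from 28 and 61 cells. The 4 control cells per gene named above held most of the control UMIs, and the control cell with the most UMIs of each gene lay within 2-fold of the receptor limit, with 32 receptor UMIs in 14531 for Crabp1 and 100 in 37107 for Tex15. Without the top cell of each library the levels were 380 against 118 CPM for Crabp1 and 89.3 against 16.3 for Tex15. They were 2 of the 7 members at least 2-fold lower there, with 0 higher, against 3.0% of all genes lower and 3.32% higher. The others gave 0.784 (Omp), 1.16 (Gap43), 0.935 (Stmn2), 1.00 (Tubb2b) and 1.18 (Dpysl3).

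The 3-month mutant was compared with the P10 mutant to follow the genes into the adult organ. In mature VSNs Omp did not differ beyond counting error, at 442 and 426 CPM, a ratio of 1.04 (0.918 to 1.18). Gap43, Stmn2 and Tubb2b, 3 of the 7, were at least 2-fold lower at 3 months and 0 were higher, against 7.69% and 4.79% of all genes. Stmn2 read 382 against 884 CPM, a ratio of 0.432 (0.386 to 0.483). Tubb2b read 368 against 808, a ratio of 0.455 (0.406 to 0.511), and Gap43 read 96.5 against 251, a ratio of 0.384 (0.307 to 0.479). Dpysl3 was at 221 and 236 CPM, a ratio of 0.936 (0.788 to 1.11). Crabp1 (16.4 against 24.5) and Tex15 (14.7 against 19.6) were low in both, with intervals that included 1. The median log2 ratio over all genes was -0.15.

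Depth moved with this comparison, as given above. Among cells of at least 5000 UMIs, the ratios were 0.355 for Gap43, 0.446 for Stmn2, 0.455 for Tubb2b and 1.08 for Omp, close to those of all cells. Summed levels weigh deep cells most, so this closeness cannot say whether depth mattered. With cells weighted equally the Omp ratio turned below 1, as given in the closing section. Stmn2 and Tubb2b remained lower when each library was clustered on its own (0.747 and 0.639), but Gap43 turned to 1.24. In that grouping 93 of the 162 mature cells of the 3-month mutant stayed mature, 41 became unnamed, 18 gland-like and 9 precursors. Of its 26 immature cells, 22 became precursors and 4 mature. In the P10 mutant 55 of 66 mature cells stayed mature, and 36 of 84 immature cells became precursors. The part of these moves in the turn was not tested. The growth list gave 6 of 22 genes at least 2-fold lower and 1 higher at 3 months, with a median log2 ratio of -0.87. The maturity list gave 2 of 8 lower and 0 higher.

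**Figure D4:**
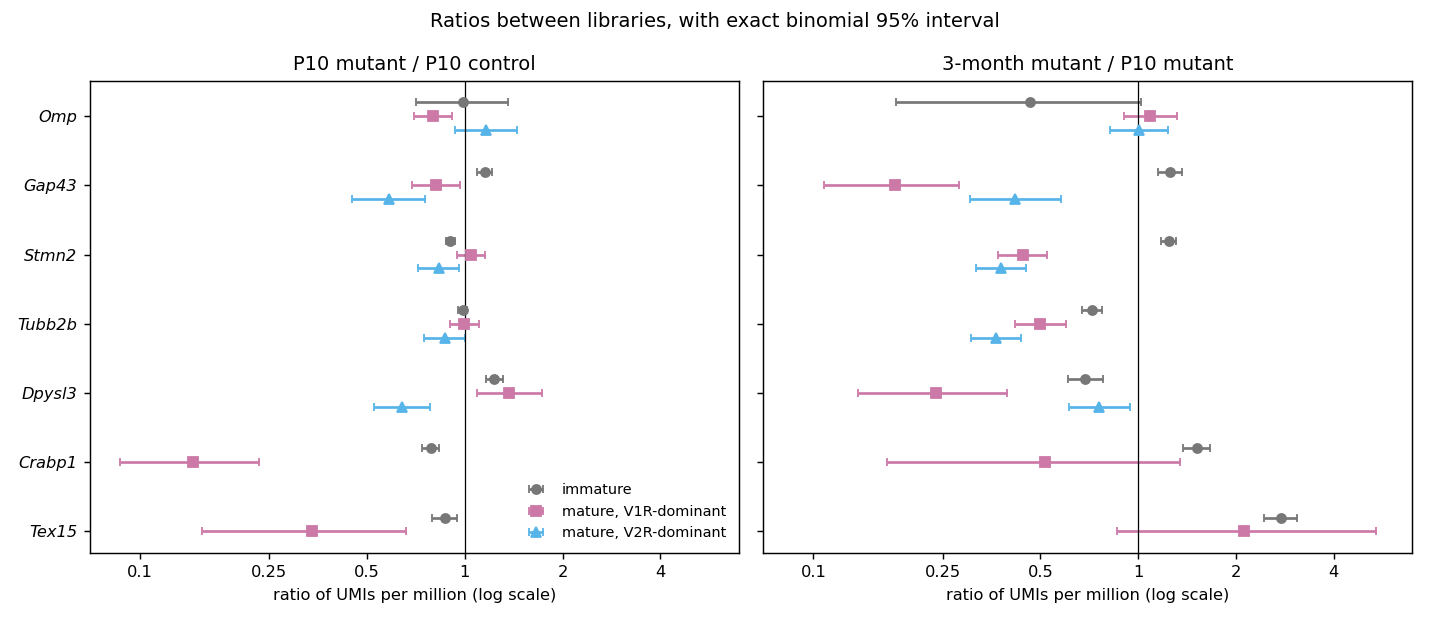
Ratio of levels (log scale) of the P10 mutant over the P10 control (left) and of the 3-month over the P10 mutant (right), in immature VSNs and in V1R-dominant and V2R-dominant mature VSNs, with exact binomial 95% intervals. At 3 months Gap43, Stmn2 and Tubb2b are lower in both kinds of mature VSNs, while Omp has intervals that include 1. Crabp1 and Tex15 of V2R-dominant cells had too few UMIs to be drawn.

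Immature VSNs of the 3-month mutant were few, 26 cells, and their members did not share a direction against P10. Tex15 was 2.75 times higher (2.45 to 3.09), the 1 member at least 2-fold higher, against 4.85% of all genes. Crabp1, Gap43 and Stmn2 gave 1.52, 1.25 and 1.24, and Dpysl3 and Tubb2b gave 0.688 and 0.722. Omp gave 0.465 on 7 UMIs, with an interval of 0.179 to 1.02, and 11.8% of all genes were at least 2-fold lower. Receptor-low cells made up 23 of the 26 at 3 months and 56 of 84 at P10. With mixed sub-clusters included, Tex15, Crabp1, Gap43 and Stmn2 turned to 0.596, 0.531, 0.287 and 0.318. With a 5% mitochondrial limit Tex15 and Crabp1 were at 7.36 and 3.20 and Omp at 0.248. Within receptor-low cells the ratios of Tex15 and Crabp1 were 1.88 and 1.06. In precursors Gap43, Stmn2, Tubb2b and Dpysl3 gave 0.844, 0.851, 0.555 and 0.649. Crabp1 (0.445) and Tex15 (0.389) were lower there at 3 months, as were 12.9% of all genes (3.96% were higher), and 27 of the 46 cells there came from 1 sub-cluster with a median of 1251 UMIs.

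Mature VSNs with at least 5 receptor UMIs were called V1R-dominant where V1R genes held at least 80% of those UMIs and V2R-dominant where they held at most 20%. There were 104, 37 and 53 V1R-dominant and 24, 14 and 68 V2R-dominant cells. Dpysl3 was the member that set the families apart in each library. It read 124, 170 and 40.7 CPM in V1R-dominant cells and 702, 451 and 342 in V2R-dominant cells. The V2R-dominant level was 5.65 (4.73 to 6.75), 2.64 (2.06 to 3.39) and 8.40 (5.19 to 14.4) times higher, against 4.55%, 3.28% and 7.15% of all genes at least 2-fold higher and 8.66%, 5.0% and 3.8% lower. At least 2-fold lower in V2R-dominant cells were Crabp1 and Tex15 in the control, on 4 and 2 UMIs, Crabp1 in the P10 mutant on 4 UMIs with an interval (0.120 to 1.46) that included 1, and 0 members at 3 months. Omp gave 0.789 (0.671 to 0.925), 1.15 (0.933 to 1.41) and 1.06 (0.879 to 1.27), and Gap43 gave 1.41, 1.01 and 2.37. Stmn2 gave 1.35, 1.07 and 0.922 and Tubb2b 1.47, 1.28 and 0.935.

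The share of V2R-dominant cells was larger at 3 months, so the age comparison was also made within each family. Among V1R-dominant cells the 3-month over P10 ratios were 0.239 (0.137 to 0.393) for Dpysl3, 0.441 for Stmn2 and 0.500 for Tubb2b. Among V2R-dominant cells they were 0.758 (0.612 to 0.943), 0.379 and 0.365. The near equality of pooled Dpysl3 thus held in neither family by itself. Gap43 was lower in both, at 0.179 (0.108 to 0.281) and 0.419 (0.303 to 0.579), where 1 cell held 10 of the 21 V1R-dominant UMIs of the 3-month mutant and where the V2R-dominant ratio became 1.36 with libraries clustered on their own. With both families weighted equally, the pooled ratio of Gap43 was 0.299, of Stmn2 0.409 and of Tubb2b 0.424. Omp gave 1.09 (0.905 to 1.32) and 1.00 (0.820 to 1.23). In V1R-dominant cells 3 of the 7 members were at least 2-fold lower at 3 months and 1 (Tex15, 2.12, 0.859 to 5.40, and 1.87 without the highest doublet scores) higher, with Crabp1 at 0.515 (0.169 to 1.34), against 10.2% and 3.67% of all genes. In V2R-dominant cells 3 of 5 members with enough UMIs (all but Crabp1 and Tex15) were lower and 0 higher, against 6.36% and 6.59%.

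**Figure D5:**
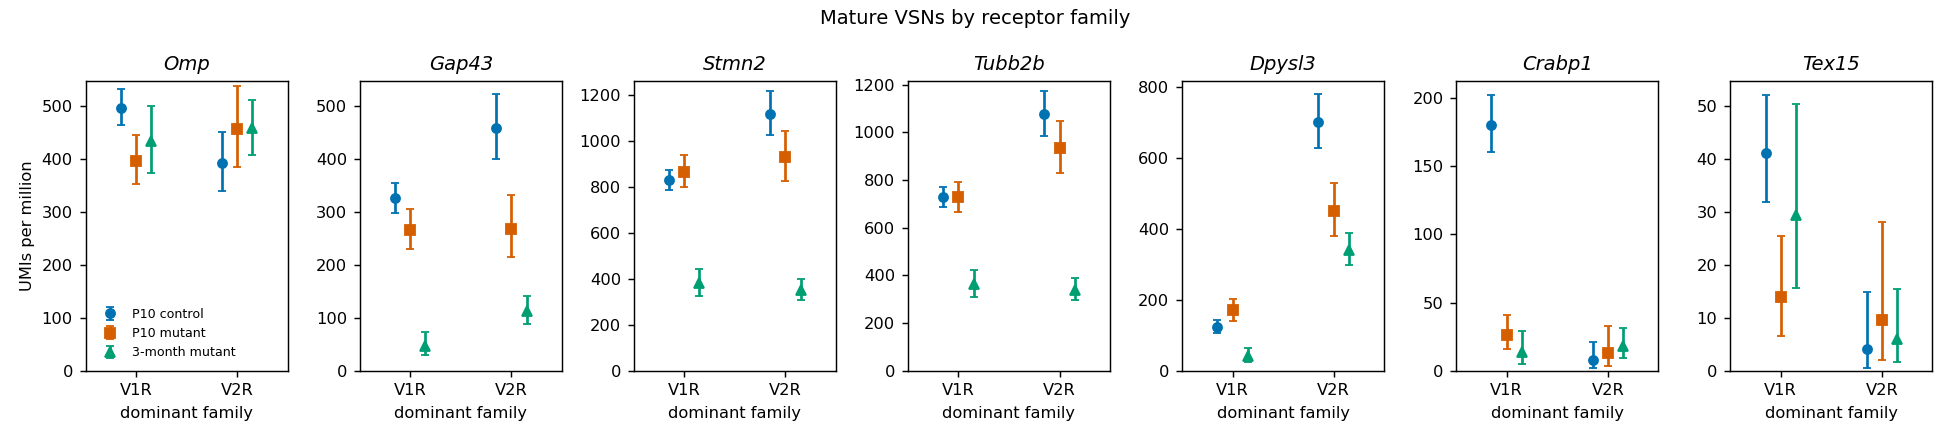
Level of each gene (CPM, linear scale from 0) in V1R-dominant and V2R-dominant mature VSNs of 3 libraries, with exact Poisson 95% intervals. Dpysl3 is higher in V2R-dominant cells of each library (702, 451 and 342 against 124, 170 and 40.7), while Omp lies between 393 and 498 throughout.

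Between the P10 libraries, Dpysl3 was 1.37 times (1.09 to 1.72) the control level in V1R-dominant mutant cells and 0.642 times (0.524 to 0.783) in V2R-dominant ones. Omp was 0.799 (0.696 to 0.915) and 1.16 (0.930 to 1.45), Stmn2 1.04 and 0.832, and Tubb2b 0.997 and 0.867. The higher Dpysl3 of V1R-dominant mutant cells was not kept, at 0.996, when each library was clustered on its own. Gap43 gave 0.817 (0.689 to 0.965) in V1R-dominant and 0.586 (0.450 to 0.756) in V2R-dominant cells, and the V1R-dominant value turned to 1.19 with stages set by marker detection and 1.23 with mixed sub-clusters included. At least 2-fold lower were 2 of 7 members in V1R-dominant cells (Crabp1 at 0.146 and Tex15 at 0.338, which became 0.293 and 1.03 without the top cell of the gene in each library) and 0 of 5 in V2R-dominant cells, and 0 were higher in either. Of all genes, 4.56% and 3.32% were lower and 2.99% and 3.35% higher.

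Outside the lineage the members differed in how neuronal they were. Omp was at most 12.8 CPM and Tex15 at most 14.9 in any of 13 other named classes, and Gap43 was at most 68.6, in ensheathing or Schwann glia of the P10 mutant. Crabp1 was not limited to neurons. Fibroblasts held 954, 1073 and 510 CPM, smooth muscle and pericytes 1407, 1216 and 268, and sustentacular cells 205, 166 and 614. Crabp1 in mature VSNs (137, 24.5 and 16.4 CPM) was below its level in fibroblasts of each library, and fibroblast markers summed to 127, 71.8 and 34.5 CPM in those VSNs, with Pdgfra at 0 at P10. Sustentacular cells also held Tubb2b at 627, 601 and 428 CPM and Stmn2 at 498, 511 and 169. Dpysl3 was not limited to neurons either. Fibroblasts held 176.5, 182.2 and 162 CPM of it, and smooth muscle and pericytes 196.5, 232.5 and 158.6. In each library its fibroblast level was below that of pooled mature VSNs and above that of V1R-dominant ones. The bearing of this on the Dpysl3 comparisons was not tested.

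Over the 11 stages of the 3 libraries with at least 20 cells, the log2 levels of Tubb2b and Dpysl3 were the most alike of the members (Pearson r of 0.987). Omp had r of 0.465 with Gap43 and between -0.06 and 0.21 with the other 5. These points share libraries and stages, so the values are descriptions. Of 9553 other genes, the 5 most like Omp were Them6 (0.991), Fam217a (0.989), Dipk1a (0.989), Gm7534 (0.988) and Bmp6 (0.988). The 5 most like Gap43 were Lingo2 (0.992), Prph (0.988), which encodes the intermediate filament peripherin, Bfsp2 (0.986), Fam219a (0.984) and Hcfc1r1 (0.984).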

How the data were processed

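The 3 libraries of male mouse VNO, 1 per group, were used. The authors deposited whole, unnormalised UMI counts per gene and barcode, made with Cell Ranger (4.0.0, 4.0.0 and 6.0.1 per the file headers) against mm10, with barcodes as filtered by Cell Ranger. Per the labels the submitters used Seurat 3.2.3.

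Here kept barcodes were normalised to 10000 UMIs, reduced to 2000 variable genes (members, list genes, Tfap2e and receptor genes left out) and 30 components, and clustered with scanpy 1.11.5 and leidenalg 0.10.2 at resolution 1. The neuronal cells were then split into sub-clusters (15 components, resolution 2). Precursors needed 200 CPM of Neurod1, and mature VSNs 5000 CPM of receptors and 200 of Umodl1 with Ano1. Sub-clusters that also held at least 3 markers of another class (mixed, 147, 63 and 47 cells), shallow unnamed neuronal cells (68, 37 and 3) and main olfactory-like cells (10, 1 and 4) were left out. Scrublet's own threshold called 0 barcodes in each library, so the highest scores at 0.8% per 1000 barcodes (538, 629 and 848) were removed as an alternative only. No correction for free RNA was made.

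Levels, intervals, shares and thinned shares (the expectation over all draws of 1000 UMIs) were computed with scipy 1.17.1. A gene was called at a CPM ratio of at least 2 or at most 0.5 with at least 20 UMIs in the pair. The 7 members were named in the ratio comparisons between stages or libraries, where they had enough UMIs, except within receptor-low cells, for which Tex15 and Crabp1 are given. Of the growth and maturity lists up to 3 genes with the highest and 3 with the lowest ratio could be named, and for likeness the 5 genes with the highest Pearson r to Omp and to Gap43. The members and lists were chosen with earlier results of these data known. The ratio code was tested on simulated data. Coordinates are from GENCODE M21 (32158 of 32285 identifiers found).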

Additional observations from a re-analysis of the deposited data

Results flagged for a closer look

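Several ratios between libraries pointed one way at one stage and the other way at another, each with a counting interval that left out 1, and these differences were not tested. With 1 library per group they have no replicate check.

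Between the P10 libraries, the mutant to control ratio of Gap43 was 0.772 in precursors, 1.15 in immature VSNs and 0.694 in mature VSNs. Crabp1 gave 1.67 in precursors and 0.785 in immature VSNs. Dpysl3 gave 1.37 in V1R-dominant and 0.642 in V2R-dominant mature VSNs.

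Between the mutants, the 3-month to P10 ratio of Stmn2 was 0.851 in precursors, 1.24 in immature VSNs and 0.432 in mature VSNs. Gap43 gave 1.25 in immature and 0.384 in mature VSNs. Crabp1 gave 0.445 in precursors and 1.52 in immature VSNs, and Tex15 gave 0.389 and 2.75.

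Omp was also found in the barcodes that the filters left out, 3407, 4908 and 3333 barcodes in the order control, P10 mutant, 3-month mutant. They held 1259, 618 and 311 Omp UMIs, and 168, 140 and 76 of them had an Omp UMI, 68, 63 and 10 of these together with Gap43. The mixed sub-clusters, also left out of the shares above, held 88, 35 and 40 Omp-positive cells. Of these, 76, 27 and 22 had Gap43, unthinned, and the mixed cells had medians of 18383, 24782 and 35711 UMIs.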

How the results depend on the processing

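Each group had 1 library, so no library could be left out, and the spread between animals is not known. No paired analysis was possible because each group holds 1 library and the fits have no test. Depth limits the 3-month mature VSNs most. The 77 ratios of members were recomputed with at least 1000 or 5000 UMIs per cell, without the highest doublet scores and with another denominator. They were also recomputed without shared barcodes, with shallow unnamed cells counted as immature and with a 5% mitochondrial limit. In these settings no ratio whose counting interval left out 1 changed direction. Changes of direction among ratios whose interval included 1 were not counted. Under the 5% limit 14 of the 77 nevertheless changed by over 1.5 times, and 36 of 37 stayed past 2-fold. Alternatives with mixed or shallow cells, shared barcodes, deep cells, equal families, the receptor cut and top cells were chosen after seeing the data.

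Stages set by marker detection count receptor-high immature cells as mature and progenitors as immature by construction. They gave mature over immature ratios of 2.30 and 1.89 for Gap43 (control and P10 mutant), 1.39 and 1.23 for Stmn2, 1.40 and 1.24 for Tubb2b and 1.52 and 1.28 for Dpysl3. Mutant over control in immature VSNs became 1.13 for Crabp1, 1.19 for Tex15 and 0.21 for the median log2 ratio, and Gap43 became 1.02 in mature and 1.19 in V1R-dominant VSNs. The 3-month over P10 ratio of Omp became 1.53 in mature VSNs and the median log2 ratio of the immature markers 0.16.

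For the following the cause was not tested. With cells weighted equally, mutant over control gave 1.01 for Crabp1, 1.34 for Tex15 and a median log2 ratio of 0.062 in immature VSNs, 1.40 for Crabp1 in mature and 1.70 for Tex15 in V1R-dominant VSNs, and Omp at 3 months over P10 gave 0.816. With separate clustering of the libraries, the median log2 ratio was 0.044, Omp in mature VSNs 1.03 and Dpysl3 in V1R-dominant VSNs 0.996 (mutant over control), and Gap43 was 1.24 in mature and 1.36 in V2R-dominant VSNs at 3 months, where no immature VSN was named and so no immature ratio exists. With mixed sub-clusters included, the 3-month over P10 ratios in immature VSNs were 0.287 for Gap43, 0.318 for Stmn2, 0.531 for Crabp1, 0.596 for Tex15 and -1.73 for the median log2 ratio, Omp in mature VSNs was 1.44, and mutant over control was 1.01 for Gap43 in mature, 1.23 for Gap43 and 1.42 for Tex15 in V1R-dominant VSNs. Without its top cells, Tex15 in V1R-dominant VSNs was 1.03. With receptor-high set by 5 UMIs, Stmn2 in the control was 1.08.

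The share of Omp-positive cells with Gap43 was 47.4% in the control at 2000 UMIs per cell, 84.5%, 87.8% and 32.9% without thinning, and 83.7%, 76.9% and 26.9% with at least 2 UMIs of each gene. Calls over all genes were 2661, 2140 and 2452 for mature over immature in the 3 libraries, and 4068, 3517 and 4574 with at least 5 UMIs, and with at least 50 UMIs 1278 and 1320 in the P10 and 3-month mutants. For mutant over control they were 505 in immature and 655 in mature VSNs, 1617 and 1717 with at least 5 and 174 and 273 with at least 50 UMIs. For 3 months over P10 they were 1360 and 1107, 2995 and 2397, and 552 and 526.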
